A study of Mus musculus with 8 samples.

Results

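The transcripts of 10 immediate early and AP-1 genes, namely Fos, Fosb, Jun, Junb, Jund, Atf3, Egr1, Ier2, Myc and Gadd45b, were followed across whole kidneys of 3 genotypes. The genes were chosen by name, and all 10 were found among the 22180 genes measured on the arrays. The kidneys came from mice 2 months old and were snap frozen, with 1 array for each of 8 mice: 2 wild type mice, 3 Col4a3-/- mice (here the single mutant) and 3 Col4a3-/-OPN-/- mice (here the double mutant). Col4a3 encodes a chain of the collagen network of the glomerular filter, and mice without it are a model of Alport syndrome. OPN is osteopontin, a secreted matrix protein and cytokine, so the double mutant lacks the same collagen chain and osteopontin besides. The sources used here do not name the strain, the sex or the design of the deleted alleles, and a wild type group of 2 mice with no osteopontin-only group limits what the design can separate.

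Immediate early genes are switched on within minutes of a growth factor, stress or injury signal, by transcription factors that are already present in the cell, and their short-lived transcripts soon fall again. The Fos and Jun families encode leucine zipper proteins that pair to form AP-1, a transcription factor that binds promoters and enhancers of genes for proliferation, matrix and inflammation. Atf3 is a related leucine zipper protein of the stress response, Egr1 a zinc finger factor, Ier2 a small nuclear protein, Myc a factor that drives growth and Gadd45b a stress protein that acts on MAP kinase signalling. In the kidney these genes are known for their induction in injured tubules. Whole kidney RNA holds all cell types together, so more RNA per cell and more cells of an expressing type cannot be told apart.

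The upstream sequence of 5 of the genes is shown because such short elements are where stimulus-regulated factors meet these promoters. Each line holds the 150 bases before the RefSeq transcript start, 5′ to 3′ in the direction of the gene, from the mouse build GRCm38.p6. Capitals mark TGACGT (part of the cyclic AMP and ATF element), TGANTCA or TGANNTCA (AP-1 and ATF type sites), and TATAA, each searched on both strands, where a TGACGT may lie within a TGANNTCA.
Fos (chr12:85473740-85473889, plus strand): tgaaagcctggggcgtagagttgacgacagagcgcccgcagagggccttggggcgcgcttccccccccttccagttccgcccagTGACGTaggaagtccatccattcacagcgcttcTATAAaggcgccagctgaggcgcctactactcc
Jun (chr4:95052223-95052372, minus strand): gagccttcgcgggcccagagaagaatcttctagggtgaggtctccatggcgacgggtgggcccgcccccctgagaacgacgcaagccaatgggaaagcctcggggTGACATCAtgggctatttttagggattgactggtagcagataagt
Junb (chr8:84978749-84978898, minus strand): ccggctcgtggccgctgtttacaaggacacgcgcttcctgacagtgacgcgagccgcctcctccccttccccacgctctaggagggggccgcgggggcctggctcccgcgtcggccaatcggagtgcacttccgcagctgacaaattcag
Atf3 (chr1:191183334-191183483, minus strand): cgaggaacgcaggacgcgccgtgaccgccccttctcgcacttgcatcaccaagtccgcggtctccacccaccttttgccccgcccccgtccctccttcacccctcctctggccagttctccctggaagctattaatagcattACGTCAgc
Gadd45b (chr10:80929941-80930090, plus strand): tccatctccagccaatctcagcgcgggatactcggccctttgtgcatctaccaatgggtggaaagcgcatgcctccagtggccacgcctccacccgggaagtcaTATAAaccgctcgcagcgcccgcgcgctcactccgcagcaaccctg

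In these windows TGACGT lay 66 to 61 bases before the start of Fos and, on the other strand, 8 to 3 bases before that of Atf3. The letters TGACATCA lay 45 to 38 bases before the start of Jun. No capitals fell in Junb. Of all 32851 promoters in the table, the same 150 bases held TGACGT in 5.15%, TGANNTCA in 8.37%, TGANTCA in 4.24% and TATAA in 14.2%, so none of these letter strings is rare. A match is a description of the letters and was not tested as a site.

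The arrays had close medians, from 5.18 to 5.25 on the log2 scale. The sex of each mouse, read from Xist and from Uty, Kdm5d and Eif2s3y of the Y chromosome, was male for both wild type mice, for single mutant 2 and for double mutant 3, and female for the other 4 mice. Every comparison with wild type therefore sets males against groups of mostly females, and a fit with a term for sex is given beside the first. The Col4a3 transcript differed from wild type by -1.29 in the single (SE 0.46, adjusted p = 0.162 in limma) and -1.75 in the double mutant (SE 0.46, adjusted p = 0.0998), short of the threshold. With the sex term these were -0.73 (SE 0.40, adjusted p = 0.201 in limma) and -1.19 (SE 0.40, adjusted p = 0.0657). The osteopontin gene was not analysed here.

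Without the term for sex, none of the 10 genes differed between any pair of genotypes at an adjusted p under 0.05 in limma. Of the 7 genes bright enough for the main test (Jun, Junb, Jund, Atf3, Egr1, Myc and Gadd45b), 0 reached an unadjusted p under 0.05 in the single mutant against wild type, where 23.2% of the 7145 genes tested did so and 0.028% passed after adjustment. In the double mutant against wild type 1 of the 7 (Myc) reached it, beside 21.6% of all genes, of which 0.084% passed after adjustment. Between the mutants it was again 1 of 7 (Gadd45b), beside 1.46% of all genes and 0% after adjustment. Fos, Fosb and Ier2 lay below the signal limit of the main test (a mean log2 value of 6.64). They were tested among the 13062 genes above the median signal, of which 0.0153%, 0.122% and 0% passed in the 3 comparisons, and none of them did.

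Among the 7 brighter members directions leaned upward against wild type without a call. Of these 7, 5 were above zero in the single mutant, 6 in the double mutant and 5 between the mutants. The shares of all genes in the main test were 42.8%, 40.8% and 50.4%. With Fos, Fosb and Ier2 added, 6 of 10 were above zero and 4 below in the single mutant, and 7 and 3 in the double mutant. Between the mutants 8 were above and 2 below. The medians over all 10 were 0.04, 0.25 and 0.22. Fos and Ier2 were below zero against wild type in both mutants, Ier2 by only -0.00052 in the double mutant. The share of all genes was not counted for this wider set. Of all 10 members 0 had groups that did not overlap in the single mutant against wild type, where 19.3% of genes above the median signal were higher and 23.7% lower without overlap. In the double mutant 1 did (Myc, higher), beside 19.1% higher and 23.4% lower, and between the mutants 1 (Gadd45b, higher), beside 2.57% higher and 3.03% lower.

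**Figure D1:**
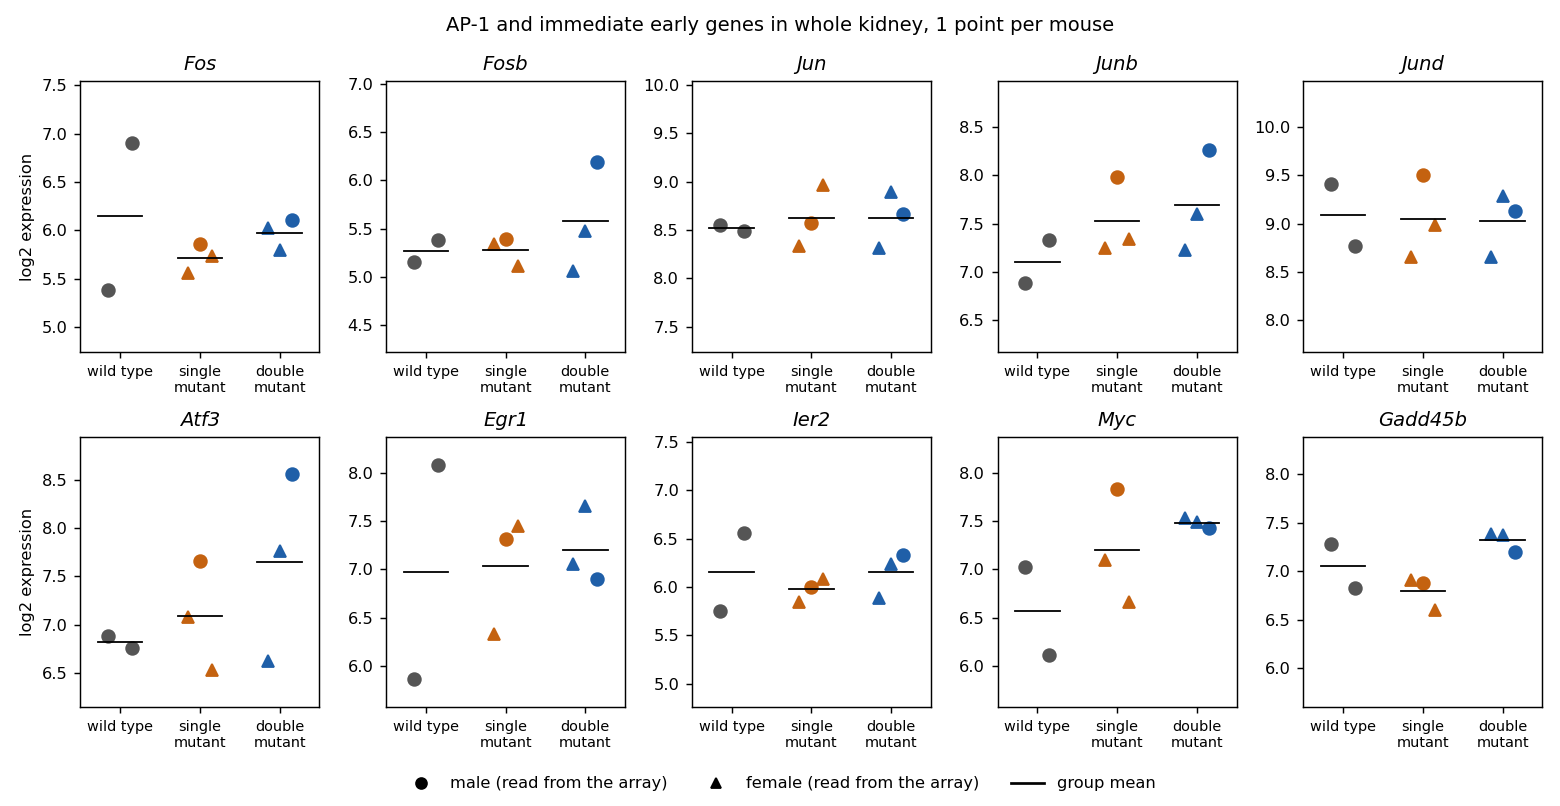
Log2 expression of each gene (vertical axis, the same span in every panel) in the 3 genotypes (horizontal axis), with 1 point per mouse, circles for males, triangles for females and a bar for the group mean. The wild type points of Fos and Egr1 lie far apart, Fosb, Junb and Atf3 are highest in the male double mutant, and the mutant groups do not overlap in Gadd45b.

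Fos (gene 14281, chromosome 12, 85473890 to 85477274, GRCm38) encodes the c-Fos subunit of AP-1. Its log2 values were 5.38 and 6.91 in wild type, 5.56, 5.86 and 5.74 in the single mutant and 6.02, 5.80 and 6.11 in the double mutant. All 6 mutant kidneys thus lay between the lowest and the highest wild type kidney. The difference from wild type was -0.43 (SE 0.38, adjusted p = 0.54 in limma) in the single and -0.17 (SE 0.38, adjusted p = 0.846) in the double mutant. The sign of both depended on wild type 2, since without it they were 0.33 and 0.59, and without wild type 1 they were -1.19 and -0.93, again without passing.

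Fosb (gene 14282, chromosome 7, 19302696 to 19310118) encodes a second Fos protein. It measured 5.16 and 5.38 in wild type, 5.34, 5.39 and 5.11 in the single mutant and 5.06, 5.47 and 6.19 in the double mutant. Double mutant 3 stood above all others, which lay between 5.06 and 5.47. Double mutants exceeded wild type by 0.31 on average (SE 0.29, adjusted p = 0.602 in limma), a difference that was -0.0021 without double mutant 3. The difference between the mutants was 0.29 (SE 0.26, adjusted p = 1), and -0.01 without that array.

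Jun (gene 16476, chromosome 4, 95049036 to 95052222) encodes c-Jun, the main partner of Fos. Its values were 8.55 and 8.49 in wild type, 8.34, 8.57 and 8.97 in the single mutant and 8.32, 8.89 and 8.67 in the double mutant. Means were 8.52 ± 0.05 (SD, n = 2), 8.62 ± 0.32 (SD, n = 3) and 8.62 ± 0.29 (SD, n = 3). The mutants differed from each other by -0.00076 with a 95% interval from -0.47 to 0.47 in limma, so a difference of up to that size is within the error of 3 mice per group.

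Jund (gene 16478, chromosome 8, 70697739 to 70700616) encodes JunD, the family member that is expressed steadily in most tissues. Its values were 9.41 and 8.77 in wild type, 8.65, 9.50 and 8.99 in the single mutant and 8.66, 9.29 and 9.13 in the double mutant. The groups overlapped in full. Differences from wild type were -0.04 (SE 0.31, adjusted p = 0.946) and -0.07 (SE 0.31, adjusted p = 0.921) in limma, and both had the opposite sign after quantile normalization (0.12 and 0.03) and after cyclic loess (0.04 and 0.0091). A dimmer second probe set for the gene ranged from 5.39 to 6.11. Both probe sets were lowest in single mutant 1, and the second was highest in double mutant 2.

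Junb (gene 16477, chromosome 8, 84976909 to 84978748) encodes JunB, which pairs with Fos proteins and can oppose c-Jun. Wild type kidneys had 6.89 and 7.33, single mutants 7.24, 7.98 and 7.34, and double mutants 7.23, 7.60 and 8.26. The 2 highest values were those of the mutant males, and 3 of the 4 mutant females lay close to the upper wild type value. Means were 7.11 ± 0.31 (SD, n = 2), 7.52 ± 0.40 (SD, n = 3) and 7.70 ± 0.53 (SD, n = 3) in the same order. The differences were 0.42 (SE 0.34, adjusted p = 0.461 in limma) and 0.59 (SE 0.34, adjusted p = 0.337).

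Atf3 (gene 11910, chromosome 1, 191170296 to 191183333) encodes a stress-induced factor of the ATF family that can pair with Jun proteins. It measured 6.89 and 6.76 in wild type, 7.08, 7.66 and 6.53 in the single mutant and 6.63, 7.76 and 8.56 in the double mutant. The range was 0.13 in wild type, 1.13 in the single and 1.93 in the double mutant, and each mutant group had 1 kidney below both wild type kidneys. Mean differences from wild type were 0.83 in the double mutant (SE 0.53, adjusted p = 0.389 in limma) and 0.27 in the single mutant (SE 0.53, adjusted p = 0.769). Without single mutant 2 the second difference was -0.02.

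Egr1 (gene 13653) encodes a zinc finger factor that responds to growth factors through the MAP kinase pathway. Its values were 5.87 and 8.08 in wild type, 6.34, 7.31 and 7.45 in the single mutant and 7.06, 7.66 and 6.90 in the double mutant. As with Fos, all 6 mutant kidneys lay inside the wild type range. Differences from wild type were 0.06 (SE 0.62, adjusted p = 0.966 in limma) and 0.23 (SE 0.62, adjusted p = 0.855). Leaving out wild type 1 turned them to -1.05 and -0.88, and leaving out wild type 2 gave 1.17 and 1.34, none of which passed.

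Ier2 (gene 15936, chromosome 8, 84661331 to 84662852) encodes an immediate early nuclear protein. It measured 5.75 and 6.56 in wild type, 5.84, 6.0 and 6.09 in the single mutant and 5.89, 6.24 and 6.33 in the double mutant. The 6 mutant kidneys again lay within the wild type pair. Its differences from wild type were -0.18 (SE 0.24, adjusted p = 0.703 in limma) and -0.00052 (SE 0.24, adjusted p = 1), the second of which was 0.0083 after cyclic loess. Without wild type 2 the differences were 0.22 and 0.40.

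The largest contrast in Fos, Egr1 and Ier2 was thus inside the wild type group. Wild type 2 exceeded wild type 1 by 2.22 in Egr1, 1.52 in Fos and 0.81 in Ier2, which are 4.65-fold, 2.87-fold and 1.75-fold. Among 13062 genes above the median signal, 0.0153% differed more in this direction than Egr1, 0.138% more than Fos and 0.957% more than Ier2. These are values of 2 mice with no test. Myc ran the opposite way at -0.92, where 99.5% of genes lay above it, and so did Jund at -0.64 and Gadd45b at -0.45.

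The other immediate early genes did not share one direction in this pair of kidneys. Of 24 tested, 10 were higher in wild type 2, with a median of -0.05 beside 0.04 for all genes tested. Nr4a1, a nuclear receptor, was higher by 0.61. Egr2, which lay below the signal limit of the main test and is not among the 24, was higher by 0.50. The difference was -1.20 for Per1, a clock gene with immediate early behaviour, and -0.81 for the kinase Sgk1. These 4 genes were chosen after their values were seen. Of 11 heat shock genes 4 were higher, and their median was -0.06. Havcr1, the tubule injury marker KIM-1, was the gene with the widest gap in the direction of wild type 2, at 4.78 in wild type 1 and 7.92 in wild type 2, and the whole list of 13 injured tubule markers, Havcr1 included, averaged 6.61 and 6.82. Of the 11 bright enough for the test 4 were higher in wild type 2, with a median of -0.07. The part of tubule injury in the Egr1 and Fos values was not tested.

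**Figure D2:**
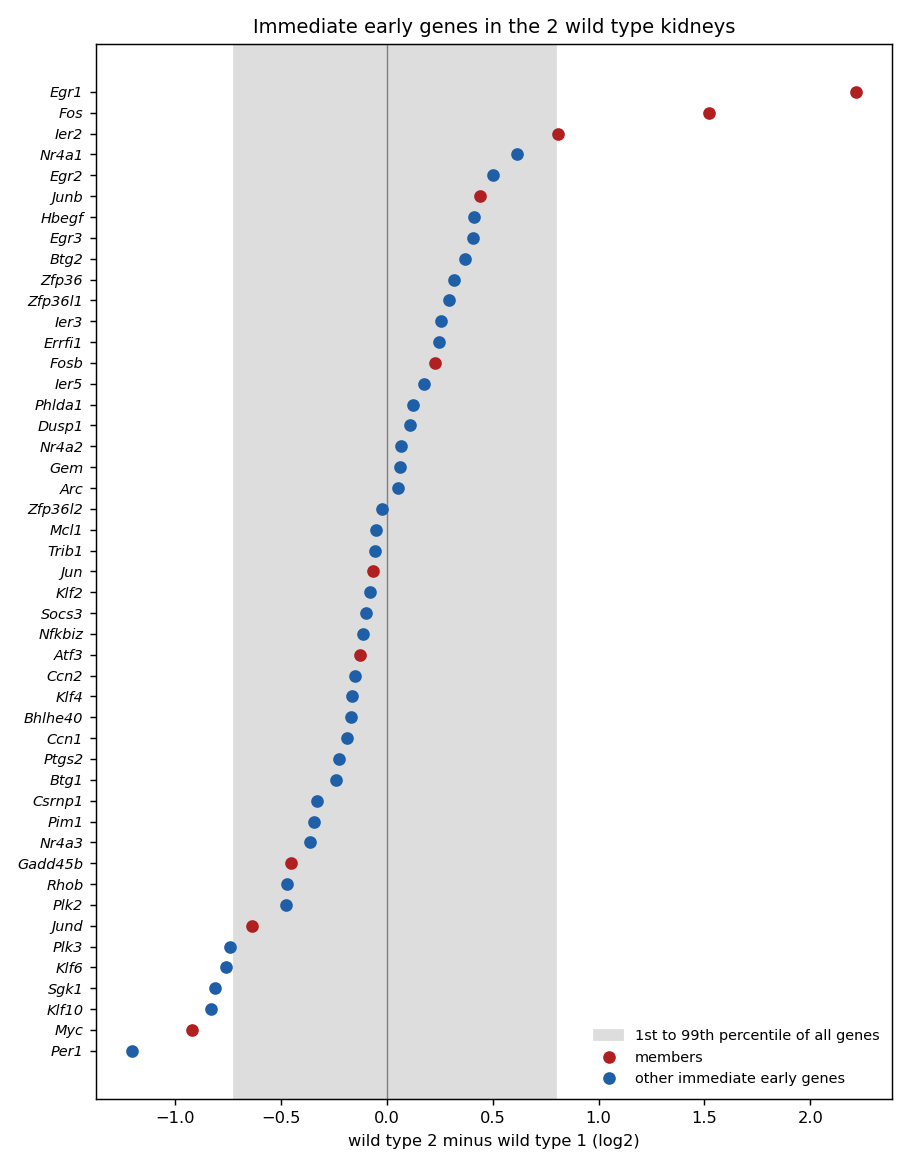
Difference between wild type 2 and wild type 1 (horizontal axis, log2) for the members in red and the other immediate early genes in blue, 1 point per gene above the median signal, sorted by size. The grey band runs from the 1st to the 99th percentile of 13062 genes (-0.72 to 0.80). Egr1 at 2.22, Fos at 1.52 and Ier2 at 0.81 lie beyond its upper end. Per1 at -1.20, Myc at -0.92, Klf10 at -0.83, Sgk1 at -0.81, Klf6 at -0.76 and Plk3 at -0.74 lie beyond its lower end.

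Myc (gene 17869, chromosome 15, 61985341 to 61990361) encodes a factor that drives genes of growth and ribosome production. It measured 7.03 and 6.11 in wild type, 7.10, 7.84 and 6.67 in the single mutant and 7.53, 7.49 and 7.43 in the double mutant. The double mutant kidneys were close to each other and all above both wild type kidneys, whereas the single mutant kidneys spanned 1.17. The double mutant mean of 7.48 ± 0.05 (SD, n = 3) exceeded the wild type mean of 6.57 ± 0.65 (SD, n = 2) by 0.91, a 1.88-fold difference that did not pass (SE 0.36, adjusted p = 0.2 in limma). The difference was 0.45 without wild type 2 and 1.37 without wild type 1. In the single mutant it was 0.63 (SE 0.36, adjusted p = 0.312), and 0.17 without wild type 2.

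Gadd45b (gene 17873, chromosome 10, 80930091 to 80932204) encodes a stress protein that binds kinases upstream of JNK and p38. It was the 1 member whose values separated the mutants, with 6.91, 6.88 and 6.60 in the single mutant and 7.39, 7.37 and 7.20 in the double mutant. Wild type kidneys had 7.28 and 6.82 and overlapped with both. The double mutant mean of 7.32 ± 0.10 (SD, n = 3) exceeded that of the single mutant, 6.80 ± 0.17 (SD, n = 3), by 0.52, which is 1.44-fold, with a 95% interval from 0.16 to 0.89. It did not pass over all genes (SE 0.16, adjusted p = 1 in limma). Of the genes tested, 1.2% had a larger difference in that direction. Leaving out any 1 array kept the difference between 0.42 and 0.58, with adjusted p from 0.555 to 1. In females the double mutants exceeded the single mutants by 0.62 and in males, with 1 mouse each, by 0.32.

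**Figure D3:**
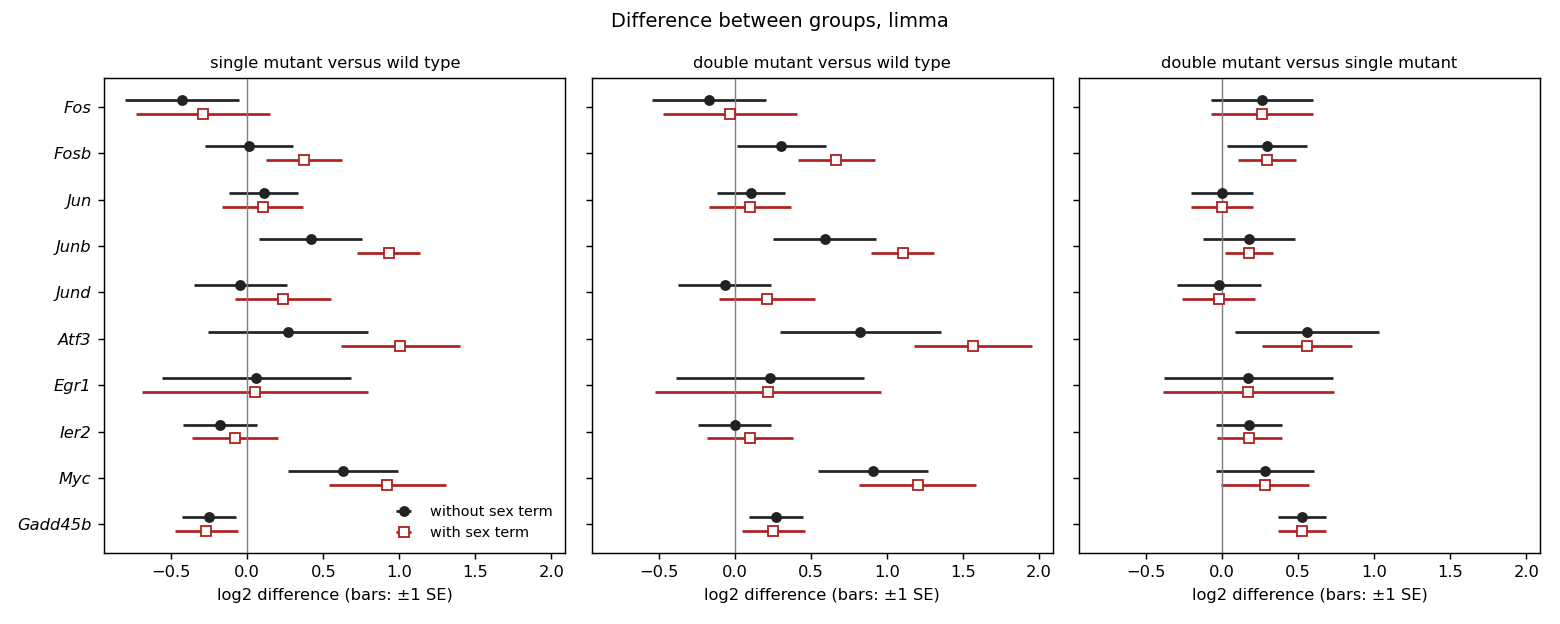
Difference between genotypes (horizontal axis, log2) for each of the 10 genes, as filled circles without and as open squares with the term for sex, with bars of 1 SE. With the sex term Junb and Atf3 move to the right in both comparisons with wild type, to 1.10 and 1.57 in the double mutant, and nothing moves between the mutants.

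With the term for sex, Junb passed in both mutants and Atf3 in the double mutant. Junb was then higher by 0.93 (SE 0.21, adjusted p = 0.019 in limma) in the single and by 1.10 (SE 0.21, adjusted p = 0.0138) in the double mutant. Atf3 was higher by 1.57 (SE 0.39, adjusted p = 0.0273) in the double mutant, and its 1.01 in the single mutant did not pass (adjusted p = 0.0882). Myc came close in the double mutant at 1.20 (SE 0.39, adjusted p = 0.0566). These calls, 1 of 7 and 2 of 7, were all higher. In the same fits 7.31% and 6.4% of all genes were called higher and 19.9% and 17.8% lower. In either direction these shares were 27.2% and 24.2%, and 0% were called between the mutants. Fosb, tested with the genes above the median signal, was higher in the double mutant by 0.67 without passing (adjusted p = 0.104 in limma). There 16.3% of genes passed in either direction.

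These calls rest on few mice, and on a sex term whose only males among the mutants are single mutant 2 and double mutant 3. The Junb call in the single mutant was lost without single mutant 2, its 1 male (1.04, adjusted p = 0.11 in limma), without wild type 1 (0.71, adjusted p = 0.0679) and without wild type 2 (1.15, adjusted p = 0.0595). In the double mutant it was lost without wild type 2 (1.32, adjusted p = 0.0579) and without double mutant 3 (1.0, adjusted p = 0.0628). The Atf3 call was lost without wild type 1 (1.63, adjusted p = 0.0755), wild type 2 (1.5, adjusted p = 0.128), single mutant 3 (1.51, adjusted p = 0.054) or double mutant 3 (1.22, adjusted p = 0.17). Among males alone, with 1 mouse per mutant and no test, Junb exceeded wild type by 0.88 in the single and 1.16 in the double mutant, and Atf3 by 0.84 and 1.74.

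The same fit gives the difference between the sexes, which is estimated in the mutants because no wild type mouse was female. The mutant males were single mutant 2 and double mutant 3 alone, so sex cannot be told apart from other traits of these kidneys. The fit takes the sex difference to be the same in wild type, which these mice cannot check. The female minus male difference of Junb was -0.77 (SE 0.17, adjusted p = 0.031 in limma), and 10.2% of all genes differed between the sexes in this fit. That of Atf3 was -1.11 (SE 0.31, adjusted p = 0.0631) and that of Fosb -0.54 (SE 0.20, adjusted p = 0.152), neither of which passed. Jun, Egr1 and Gadd45b differed by 0.01, 0.02 and 0.03. A test of whether the double mutant departs from the single mutant by a different amount in females than in males called 0 of the 7 genes and 0 of all 7145 in limma, where 12.8% had an unadjusted p under 0.05. Its widest value among the 10 was 1.03 for Myc (SE 0.51, adjusted p = 0.466), with a difference between the mutants of 0.63 in females and -0.41 in males.

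Over the 8 kidneys the members fell into patterns that can be read from the values above. Wild type 2 was highest in Fos, Egr1 and Ier2, and double mutant 3 in Fosb, Junb and Atf3. Of 45 pairs of members compared, Fosb and Atf3 had the highest correlation (Pearson r = 0.909, exact permutation p = 0.00151, adjusted p = 0.0681; Spearman rho = 0.905, exact permutation p = 0.00456, adjusted p = 0.205). It was 0.77 without the 2 arrays farthest from the median of Fosb. Junb and Atf3 correlated at r = 0.859 (exact permutation p = 0.00548, adjusted p = 0.0911) with rho = 0.619 (exact permutation p = 0.115, adjusted p = 0.7), and at 0.513 without 2 arrays. Fos and Ier2 gave r = 0.844 (exact permutation p = 0.00608, adjusted p = 0.0911) with rho = 0.786 (exact permutation p = 0.0279, adjusted p = 0.414), and 0.479 without 2 arrays. No pair passed after adjustment over the 45, and the arrays mix genotypes and sexes.

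The genes whose values over the 8 kidneys ran closest to the mean of the 7 tested members were Bcl3, a nuclear cofactor of NF-kappaB, at r = 0.977 and the chloride channel protein Clic1 at 0.972. They were followed by Tfe3, a lysosomal transcription factor, at 0.963, the histone H2ax at 0.948 and the actin-binding Dbnl at 0.946. They were picked for this likeness among all other genes tested, so the values are a description. Bcl3 measured 6.04 and 6.56 in wild type, 6.34, 7.58 and 6.42 in the single mutant and 6.71, 7.54 and 7.62 in the double mutant. It was thus high in single mutant 2 and double mutants 2 and 3, the 3 kidneys in which the members' mean was also highest.

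Those 3 kidneys also had the highest levels of tubule injury and macrophage markers and the lowest levels of proximal tubule markers. The 13 markers of injured tubules averaged 8.67, 8.75 and 8.92 in single mutant 2 and double mutants 2 and 3. They averaged between 7.47 and 7.92 in the other mutants and 6.61 and 6.82 in wild type. Macrophage markers averaged 8.35, 8.01 and 7.75 in the same 3 kidneys and at most 7.67 in the others. Proximal tubule markers averaged 9.77, 10.66 and 10.7 in them and at least 11 in the others. Fibroblast and pericyte markers were higher in double mutant 1 (8.66) than in double mutant 3 (8.52). The 14 macrophage markers, all measured, ranged from 6.08 to 6.23 in wild type, 6.92 to 8.35 in the single and 7.67 to 8.01 in the double mutant. The 11 fibroblast and pericyte markers ranged from 6.94 to 7.02, 7.92 to 9.19 and 8.52 to 8.91, and the 14 proximal tubule markers from 11.41 to 11.49, 9.77 to 11.31 and 10.66 to 11 in the same order. The 2 mutant males, single mutant 2 and double mutant 3, which had the highest Junb values, also had the lowest levels of 2 other lists. The 10 collecting duct markers averaged 7.35 and 6.99 in them and 7.80 to 8.21 in the other 6 kidneys, and the 9 markers of the loop of Henle and distal tubule 9.40 and 9.07 against 9.92 to 10.14. Lymphocyte markers (10 of 13 measured) averaged 4.96 and 4.98 in wild type, 5.01 to 5.18 in the single and 5.09 to 5.64 in the double mutant, highest in double mutant 1. Neutrophil markers (9 measured) stayed between 4.82 and 4.95 and adrenal markers (8 measured) between 4.72 and 4.82 on all arrays. The part of these cell types in the members' mean and in the values of Junb, Atf3 and Fosb was not tested.

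Other genes of the pathway were taken from lists chosen with earlier results of these data known. Their counts beside those of all genes are therefore a description. In these lists 106 genes were bright enough for the test. Without the sex term 0 of the 106 passed against wild type in either mutant in limma. The lowest p values belonged to Map3k1, a kinase upstream of JNK, which had 7.21 and 7.50 in wild type, 8.48, 8.84 and 8.39 in the single mutant and 8.45, 8.52 and 8.69 in the double mutant. No mutant value overlapped with wild type, where 19.3% and 19.1% of genes above the median signal were higher without overlap. The Map3k1 differences were 1.21 (SE 0.18, adjusted p = 0.0682 in limma) and 1.19 (SE 0.18, adjusted p = 0.0669). Both comparisons use the same 2 wild type kidneys.

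Dusp1, an immediate early phosphatase that switches MAP kinases off, was lower in every mutant kidney than in wild type. Of genes above the median signal, 23.7% in the single and 23.4% in the double mutant were lower without overlap. Dusp1 measured 9.88 and 9.99 in wild type, 9.12, 9.07 and 9.32 in the single mutant and 8.96, 9.35 and 8.87 in the double mutant. Its differences were -0.77 (adjusted p = 0.0936 in limma) and -0.88 (adjusted p = 0.0691). Dusp7, another phosphatase of the family, differed by -0.82 and -0.89, the p38 activator Map2k6 by -1.02 in the double mutant and the EGF receptor inhibitor Errfi1 by -0.66 in the single mutant. On the upper side Zfp36l1, an RNA-binding protein that speeds transcript decay, differed by 1.05 and 1.08, and Vim, the intermediate filament vimentin, by 1.66 and 2.05. None of these passed.

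With the sex term 17 of the 106 passed in the single mutant, 13 higher and 4 lower, and 18 in the double mutant, 14 higher and 4 lower, beside 7.31% higher and 19.9% lower of all genes in the single and 6.4% higher and 17.8% lower in the double mutant. The largest increases were Vim (2.00 and 2.39), the matrix protease Mmp14 (1.93 and 2.33), the matricellular Ccn2 (1.58 and 1.51), the keratin Krt18 (1.55 and 1.74) and the cytokine Tgfb1 (1.45 and 1.81). Dusp1 fell by 0.91 (SE 0.18, adjusted p = 0.0135 in limma) in the single and by 1.02 (SE 0.18, adjusted p = 0.0119) in the double mutant. Mlx, a partner in the MYC network, fell by 1.10 and 1.18 and the cyclin Ccng1 by 0.60 and 0.61. Hsph1, a heat shock chaperone, fell by 0.78 in the single and Map2k6 by 0.71 in the double mutant.

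By list, and without the sex term, the median difference from wild type in the single and double mutant was 0.11 and 0.27 for the 7 tested members, beside -0.07 and -0.08 for all genes. It was 0.10 and 0.07 for 10 other AP-1 subunits and partners, and 0.13 and 0.21 for 24 other immediate early genes. For 11 genes listed as having known AP-1 sites it was 0.34 and 0.43. Regulators of immediate early transcription (16 tested) had 0.15 and 0.18, MAP kinases (15 tested) -0.0033 and -0.05, the MYC network (9 tested) 0.05 and 0.11, and heat shock genes (11 tested) -0.10 and 0.0055. GADD45 and p53 stress genes (8 tested) had the lowest medians, -0.51 and -0.33, and the 3 tested phosphatases had -0.11 and -0.0028. With the sex term, 4 of the 24 other immediate early genes passed as higher and 1 as lower in the single mutant. In the double mutant 5 and 1 did. Of the 11 genes with known AP-1 sites, 5 and 6 passed as higher and 0 as lower. Of all genes, 7.31% and 6.4% passed as higher and 19.9% and 17.8% as lower. In the same fits 6 and 11 of 11 injured tubule markers passed as higher. So did 7 and 7 of 9 fibroblast and pericyte markers and 8 and 8 of 9 macrophage markers. Of 14 proximal tubule markers 7 passed as lower in each mutant. Without the sex term the medians of the first 3 lists were 1.21 and 1.46, 1.36 and 1.51, and 1.29 and 1.81. The part of cell types in the counts for genes with AP-1 sites was not tested. The MYC network had 1 higher and 1 lower in each mutant, and the GADD45 and p53 stress genes 1 lower in each. Other AP-1 subunits and partners had 2 and 1 higher. Heat shock genes had 1 lower in the single mutant, and MAP kinases 1 higher in each and 1 lower in the double mutant.

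Between the mutants 0 of the 106 genes passed, with or without the sex term, in limma. The smallest p values belonged on the upper side to the cell cycle inhibitor Cdkn1a at 0.99, the kinase Pim1 at 0.53 and the chaperone Hsp90aa1 at 0.34, and on the lower side to the cyclin Ccnd1 at -0.43, the coactivator Crebbp at -0.24 and the stress protein Sesn1 at -0.23. Cdkn1a had 6.83, 7.74 and 7.03 in the single and 8.15, 8.87 and 7.55 in the double mutant, where 1 kidney of each group overlapped. The list medians lay between -0.06 and 0.19, beside 0.0013 for all genes.

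**Figure D4:**
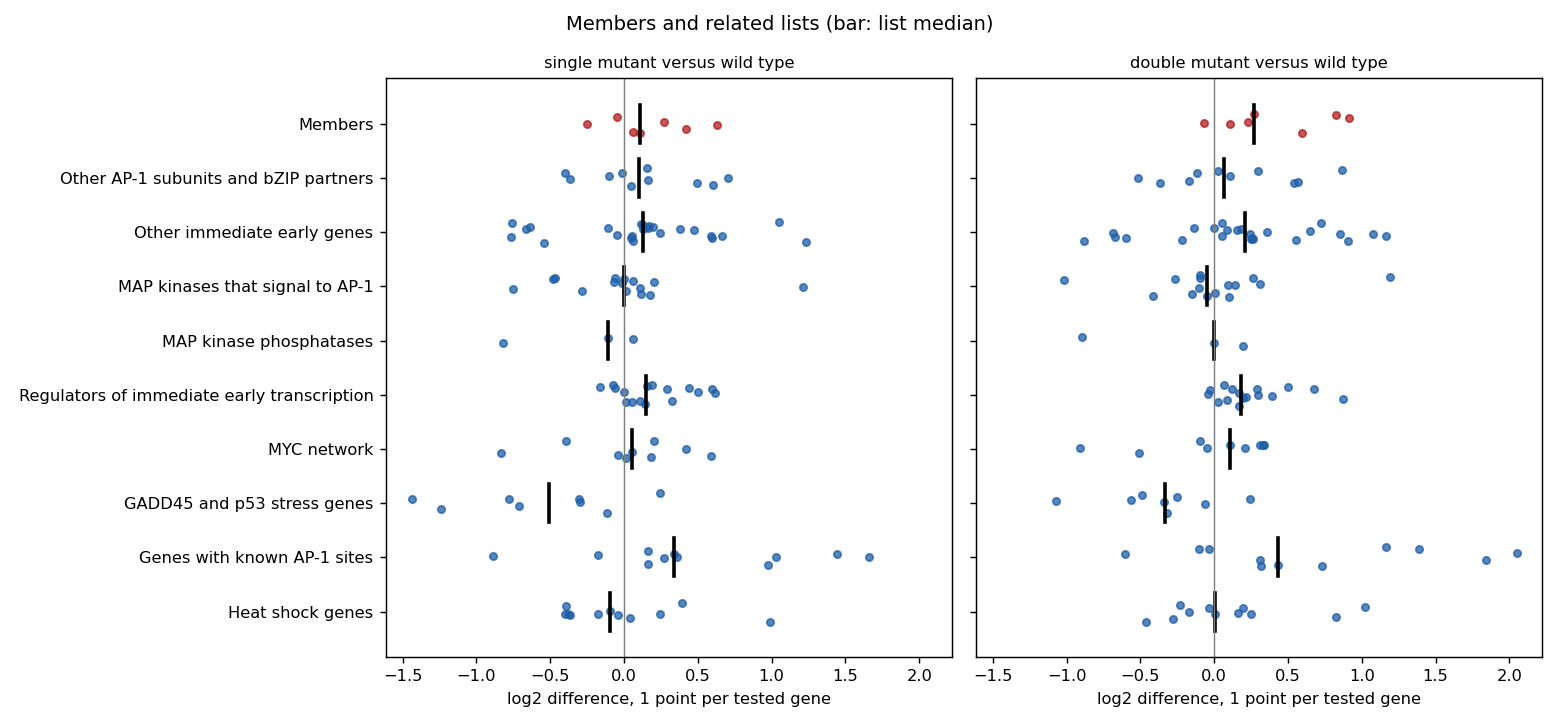
Difference from wild type (horizontal axis, log2) of every tested gene, 1 point per gene. Members are in red and the pathway lists in blue, with a bar at each list's median. The members' medians are 0.11 and 0.27. Genes listed as having known AP-1 sites lie at 0.34 and 0.43, and GADD45 and p53 stress genes at -0.51 and -0.33.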

How the data were processed

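The deposited values are on a log2 scale, as read from their range (4.20 to 13.43), with 1 for each probe set on each array. How the authors normalized them was not stated in the labels. Values were used as deposited. Of 33793 probe sets, 23521 named 1 gene, and the brightest was kept for each of 22180 genes. Genes whose mean exceeded the 75th percentile over probe sets (6.64) were tested; Fos, Fosb and Ier2 were tested among genes above the 50th percentile (5.22). The 3 genotypes were fitted together with limma 3.58.1 in R 4.3.3, two-sided, with Benjamini-Hochberg adjustment over all tested genes and a threshold of 0.05. SE is limma's moderated standard error. The fit was tested on simulated data. The genes, lists and tests were chosen with earlier results of these data known. Named besides the members are pathway genes called, up to 5 in each direction by size, or otherwise the 3 with the smallest p each way, and the 5 genes most correlated with the members' mean. Listed genes with no probe set of their own were not analysed here. P-values measure the spread between these mice. Alternatives were other filters, normalizations, priors and probe set rules, a sex term, the replicate block, males alone and leaving out each array. Figures were drawn with matplotlib 3.10.9.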

Additional observations from a re-analysis of the deposited data

How the results depend on the processing

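Without the sex term 0 members were called in each genotype comparison under every alternative run, leaving out each array included (0 to 0). With the sex term 1 was called in the single and 2 in the double mutant against wild type, also with the filter at the 50th percentile (1 and 2, chosen after seeing the data), and leaving out each array, also chosen after, gave 0 to 2 in both. Of 561 member differences recomputed, 514 kept their sign and 47 changed it, none of them a called value. Apart from leaving out arrays, the sign changed for Jund with quantile normalization (0.12, 0.033), cyclic loess (0.041, 0.0091) and the sex term (0.23, 0.21) against wild type, and between the mutants with all probe sets averaged (0.10). Fosb in the single mutant was -0.013 with quantile normalization, -0.0073 with median centring and -0.10 with the replicate block. Ier2 in the double mutant was 0.0083 with cyclic loess and 0.10 with the sex term. Among males alone, with 1 mouse per mutant and no test, the sign changed for Jund (0.41 and 0.035) in the single and double mutant against wild type, for Egr1 (-0.07) and Ier2 (0.18) in the double mutant, and for Egr1 (-0.41), Myc (-0.41) and Jun (0.095) between the mutants. The cause was not tested. Leaving out each array in turn changed the sign of the following differences, which ranged as given. Against wild type in the single mutant they were -1.19 to 0.33 for Fos, -0.10 to 0.12 for Fosb, -0.062 to 0.25 for Jun, -0.36 to 0.27 for Jund, -0.015 to 0.55 for Atf3, -1.05 to 1.17 for Egr1 and -0.58 to 0.22 for Ier2. In the double mutant against wild type they were -0.93 to 0.59 for Fos, -0.0021 to 0.56 for Fosb, -0.027 to 0.26 for Jun, -0.39 to 0.25 for Jund, -0.88 to 1.34 for Egr1 and -0.40 to 0.40 for Ier2. Between the mutants they were -0.013 to 0.55 for Fosb, -0.14 to 0.17 for Jun, -0.11 to 0.41 for Junb, -0.22 to 0.20 for Jund and -0.18 to 0.38 for Egr1. The main fit did not pair samples by replicate number. Correlations of same-numbered deviations from the group means were not all positive. This check cannot exclude a pairing, because the deviations of the 2 wild type arrays are opposite by construction. With the replicate block 0 members were called in each comparison. With 2 or 3 arrays per genotype, the number of arrays limits the precision.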
